A study of Mus musculus with 14 samples.

Results

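Chemokines are small secreted or membrane-tethered proteins that guide cells through G protein-coupled receptors, and 9 of their genes were examined here in the dorsal hippocampus of THY-Tau22 mice, a mouse model of tauopathy. The members were Ccl3, Ccl4, Ccl5, Ccl6, Ccl9, Cxcl10, Cxcl12, Cxcl16 and Cx3cl1, chosen by gene name. All 9 were found in the count table of the basal experiment, which lists 26570 genes, and in that of the learning experiment, which lists 25933 genes. All mice were C57BL6 males aged 8 months. The line was kept on a C57BL6/J background. In THY-Tau22 mice, which were heterozygous, a Thy1 promoter drives mutated human Tau, so that the transgene is neuronal. The basal experiment compared 3 WT libraries with 2 THY-Tau22 libraries from resting mice kept in the home cage. In the learning experiment, WT VEH (2 libraries) were WT mice injected with saline, TAU VEH (2 libraries) were THY-Tau22 mice injected with carbon nanospheres (CSP), and TAU MOL (2 libraries) were THY-Tau22 mice injected with CSP carrying TTK21, an activator of the acetyltransferases CBP and p300. These 3 groups learned a hidden platform's place in the Morris water maze, and WT VEH_HC (3 libraries) were saline-injected WT mice that stayed in the home cage. WT mice received saline and THY-Tau22 mice CSP, so genotype and carrier cannot be told apart in the learning experiment. A further 3 learning libraries, which the study excluded after seeing how variable the profiles were, were not analysed here.

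Chemokine classes are named for the spacing of the first cysteines in the protein. In CC chemokines these cysteines are adjacent, in CXC chemokines 1 residue stands between them, and in the CX3C chemokine 3 residues do. In the brain, microglia, the resident macrophages, are a known source of CC chemokines such as Ccl3 and Ccl4. Neurons make Cx3cl1 (fractalkine), which sits in the neuronal membrane and binds Cx3cr1 on microglia, and Cxcl12 (SDF-1) is made by endothelial, meningeal and neuronal cells. Cxcl10 is a well-known target of interferon and NF-kB signalling, and Cxcl16, like Cx3cl1, is made with a membrane anchor and released by the sheddases Adam10 and Adam17.

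Depth ran from 28639121 to 37681155 counts in the basal libraries and from 24693713 to 52180305 in the learning libraries. Levels are given as CPM, the counts scaled to a common library size after TMM normalization by edgeR. Thy1, whose promoter drives the transgene, had 1805 to 2352 CPM in every THY-Tau22 library and 786 to 914 CPM in every WT library. The dissected tissue is a mixture, in which fewer cells of a type and less RNA per cell cannot be told apart. Choroid plexus markers (14 genes, summed) ran from 1617 to 2498 CPM in WT VEH, from 244 to 291 CPM in TAU VEH, from 728 to 796 CPM in TAU MOL and from 81.3 to 243 CPM in WT VEH_HC, and reached 1334 CPM in the second basal THY-Tau22 library. Counts also depended on GC content: the rank correlation, taken across genes, of GC content with a library's deviation from the mean of its experiment lay between -0.62 and -0.40 in the learning THY-Tau22 libraries and between 0.085 and 0.46 in the learning WT libraries. At rest, the first THY-Tau22 library stood at 0.481, the second at -0.60, and WT lay between 0.067 and 0.323. The part of these differences in the results was not tested, but the members were also fitted after correcting for the GC content and length of genes, given where this changed the call. Receptors, markers and other genes named below were not examined under this correction. It left 1267 genes called over the 9 learning libraries, against 4612 without it.

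The class of each member can be read in its coding sequence. The 30 bases around the first conserved cysteines are shown for 8 members, from the GENCODE transcripts of the mm9 build and on the coding strand, with the cysteine codons in capitals.
Ccl4: cccacttccTGCTGTttctcttacacctcc
Ccl5: accactcccTGCTGCtttgcctacctctcc
Ccl6: tcttcagacTGCTGCttctcttatgccaca
Ccl9: tcttcagatTGCTGCctgtcctataactca
Cxcl10: acggtccgcTGCaacTGCatccatatcgat
Cxcl12: agctaccgaTGCcccTGCcggttcttcgag
Cxcl16: gctggaagtTGTtctTGTgatcgtaccatt
Cx3cl1: atgacgaaaTGCgaaatcatgTGCgacaag
The first of these cysteines is codon 34 in Ccl4, codon 50 in Ccl6, codon 57 in Ccl9 and codon 32 in Cx3cl1. The short chemokines have 92 to 123 codons, whereas Cxcl16 has 247 and Cx3cl1 has 396, the length that holds their stalk and membrane anchor.

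The 5 CC members lie together on chromosome 11 of mm9, from 83339280 to 83478185. No other protein-coding gene listed in either experiment lies in this stretch of 138.9 kb. Their order is Ccl5, Ccl9, Ccl6, Ccl3 and Ccl4, with gaps of 42.4, 9.24, 54.8 and 13.2 kb. Ccl3 and Ccl4 share 71.4% of aligned coding bases and Ccl6 and Ccl9 share 70.6%, the highest values of the 10 CC pairs, which ran down to 60.7%. The other neighbours, Ccl6 and Ccl3 (65.8%) and Ccl5 and Ccl9 (61.9%), were less alike than Ccl4 and Ccl9 (68.9%), which are not neighbours. Despite this likeness, none of the 50-base windows of Ccl3, Ccl4, Ccl5 or Ccl6 was found in another gene, and 1.87% of those of Ccl9 were. An intron of Ccl6 overlaps the antisense gene E230016K23Rik, which shares none of its exon bases. Cxcl16 (chromosome 11 from 70267485 to 70273486) shares 18.3% of its exon bases with Zmynd15 on the opposite strand, and Cxcl10 (chromosome 5 from 92775664 to 92777915) shares 8.75% with Art3. The libraries did not mark strand, so reads in these overlaps are uncertain. Zmynd15 itself had 6 to 17 counts in every library. Art3 had 42 to 78 counts, against 7 to 45 for Cxcl10, and its level was highest (2.30 CPM) in TAU VEH replicate 2, the library that was also highest in Cxcl10. The part of Art3 reads in Cxcl10 was not tested.

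Cx3cl1 was by far the most abundant member in every group. Per kilobase of exon, its mean level lay between 209 CPM in TAU VEH and 299.8 CPM in WT VEH_HC. Cxcl12 was second in all 6 groups, with 6.75 to 10.5 CPM per kilobase, and the other 7 members stayed below 3 CPM per kilobase in every library. Ccl6 came next in 5 of the 6 groups, and in TAU MOL it ranked 5, where Ccl3 (1.06 CPM per kilobase) and Ccl4 (0.953) ranked above it, although the libraries of Ccl4 and Ccl3, and of Ccl4 and Ccl6, overlapped. Further down, most neighbours in the order overlapped. The lowest member was Ccl4 in basal WT mice (0.129 CPM per kilobase), Cxcl10 in WT VEH_HC (0.227) and Ccl5 in the other 4 groups. The means of Cx3cl1 and of the lowest member stood apart by 452 times in TAU VEH and by 2410 times in WT VEH. The ratio in WT VEH rests on 2 and 7 counts of Ccl5 (0.0504 and 0.193 CPM per kilobase).

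**Figure D1:**
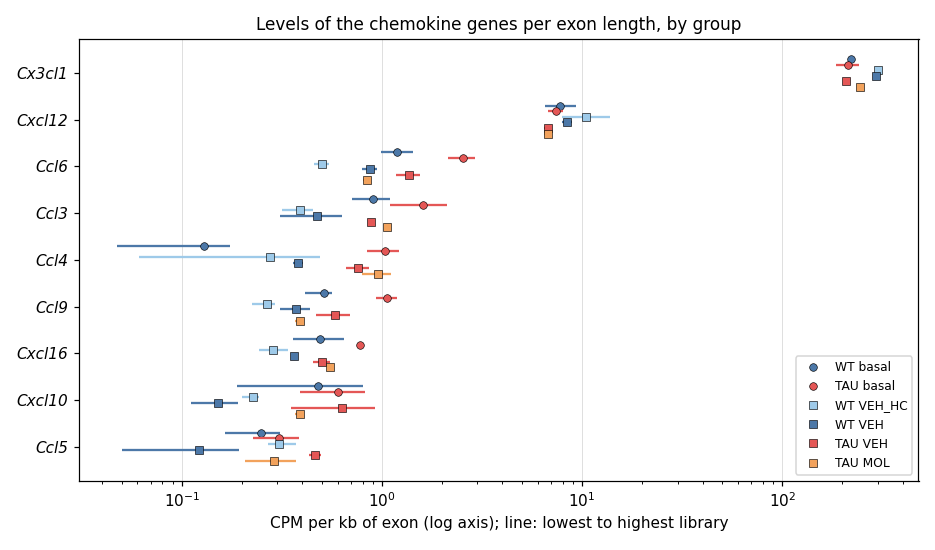
Mean level of each chemokine gene in CPM per kilobase of exon (log axis), with circles for the 2 basal groups, squares for the 4 learning groups and a line from the lowest to the highest library. Cx3cl1 and Cxcl12 stand above the other 7 genes in every group.

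The genotype comparison in the basal experiment asks whether these genes differ in THY-Tau22 mice at rest. Of the 9 members, 8 passed the low-count filter and 0 were differentially expressed by edgeR's quasi-likelihood test (adjusted p under 0.05 and absolute log2 fold change above 0.2), against 0.0245% of all 16324 genes tested. By an unadjusted p under 0.05, 5 of the 8 passed, as did 803 of all genes (4.92%). In Ccl4, Ccl6, Ccl9 and Cxcl16 each THY-Tau22 library exceeded every WT library, which held for 9.01% of all genes tested, and 0 members were lower without overlap (9.49%). Ccl3, Cxcl10, Cxcl12 and Cx3cl1 overlapped, as did Ccl5, which was not tested. Ccl4 passed the filter only through its THY-Tau22 libraries, so its place in these counts was partly set by being high there. A plot in the study shows Ccl4, Ccl6 and Ccl9 among immune response genes at rest, so their direction here is not independent evidence.

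In the learning experiment, all 9 members passed the filter. TAU VEH against WT VEH gave 3 differentially expressed members, with Ccl5 and Cxcl10 higher and Cx3cl1 lower, where 14.4% of all 16820 genes were called (3.61% higher and 10.8% lower). All 9 members were without overlap in this contrast, 7 higher and 2 lower, as were 28.5% and 29.4% of all genes. TAU MOL against WT VEH gave 1 member, Cx3cl1, lower, against 5.63% of all genes in either direction, 0.612% higher and 5.02% lower. Here 5 members were higher and 2 lower without overlap (25.6% and 26.9% of all genes). WT VEH against WT VEH_HC gave 1, Ccl6, higher with training, against 8.4% of all genes in either direction, 5.35% higher and 3.05% lower. Without overlap 3 members were higher and 2 lower (23.0% and 20.8% of all genes). TAU MOL against TAU VEH gave 0 members, where edgeR called 0.0% of all genes, 2 members and 1064 genes (6.33%) had an unadjusted p under 0.05 and DESeq2 called 54 genes. Without overlap 2 members were higher and 3 lower (21.5% and 17.4% of all genes). When the 4 THY-Tau22 libraries were set against all 5 WT libraries, 8 of 9 members were differentially expressed, 6 higher and 2 lower, against 27.4% of all genes (12.1% higher and 15.4% lower). The libraries did not overlap for 4 members that were higher and 2 that were lower, as for 10.0% and 13.3% of all genes. That contrast mixes trained and home cage mice and 3 kinds of injection. By DESeq2, the members called numbered 0 at rest (0.229% of all genes), 1 in TAU VEH against WT VEH (18.6%), 1 in TAU MOL against WT VEH (12.7%), 0 in TAU MOL against TAU VEH (0.351%), 0 in WT VEH against WT VEH_HC (13.8%) and 4 over the 9 libraries (30.7%). With the GC and length correction they numbered 0 at rest (0.0735%), 0 in TAU VEH against WT VEH (3.0%), 0 in TAU MOL against WT VEH (0.125%), 0 in TAU MOL against TAU VEH (0.0%), 0 in WT VEH against WT VEH_HC (4.37%) and 6 over the 9 libraries (7.53%). The DESeq2 shares leave out genes without an adjusted p. Only Ccl6, Cxcl12 and Cx3cl1 had one in TAU VEH against WT VEH and in WT VEH against WT VEH_HC. Only Cxcl12 and Cx3cl1 had one in TAU MOL against WT VEH, and all but Ccl4 and Ccl5 in TAU MOL against TAU VEH. Over the 9 libraries, Ccl6, Ccl9, Cxcl12, Cxcl16 and Cx3cl1 had one. The WT VEH libraries enter 4 of these 5 learning contrasts, which are therefore not separate evidence. The scaling sets the balance of directions: of all calls, 74.9% were lower with TMM and 28.3% with library size alone in TAU VEH against WT VEH, 89.1% and 30.1% in TAU MOL against WT VEH, 36.3% and 25.4% in WT VEH against WT VEH_HC, and 56.0% and 18.9% over the 9 libraries. Library size alone raised the all-gene median, on the log2 scale, by 0.147, 0.121, 0.0192 and 0.143 in these contrasts. A plot in the study also shows Ccl4 among inflammatory markers of the learning samples. The study also measured Ccl4 by RT-qPCR in a different cohort of mice. There it reported that TAU VEH and TAU MOL each differed from WT VEH, with no significant difference between TAU MOL and TAU VEH.

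**Figure D2:**
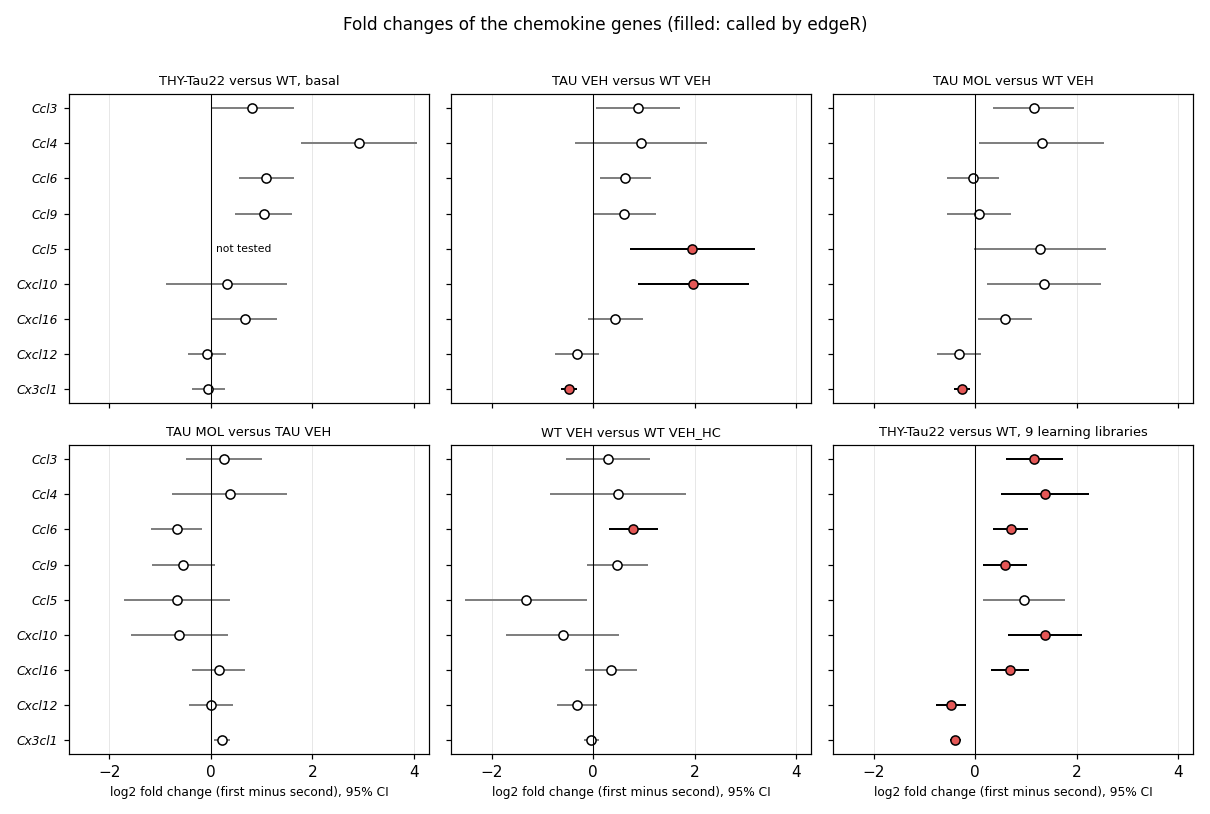
Log2 fold change of each chemokine gene in the 6 comparisons, with the 95% confidence interval of edgeR's fit and filled circles for differentially expressed genes. Called genes number 0 in the basal panel and 8 in the panel of the 9 learning libraries.

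Ccl3 (MIP-1 alpha) and Ccl4 (MIP-1 beta) are CC chemokines of activated microglia and macrophages, and Ccl3 binds Ccr1. Ccl3 had 0.838, 0.546 and 0.691 CPM in the basal WT libraries and 0.838 and 1.62 CPM in the THY-Tau22 libraries. The groups met at the first library of each, and the log2 fold change was 0.81 (standard error 0.36, adjusted p = 0.902). It was 0.272 without the second THY-Tau22 library and 1.24 without the first. In the learning experiment Ccl3 had 0.305, 0.242 and 0.347 CPM in WT VEH_HC, 0.483 and 0.238 CPM in WT VEH, 0.671 and 0.679 CPM in TAU VEH, and 0.824 and 0.798 CPM in TAU MOL. All 4 THY-Tau22 libraries were above all 5 WT libraries, and the log2 fold change was 1.16 with an SE of 0.25 (adjusted p = 0.00405), and the gene was called in 17 of 17 alternatives that gave an adjusted p (from 0.000257 to 0.0353). The 2 contrasts with WT VEH alone did not pass, at 0.88 for TAU VEH (adjusted p = 0.149, 0.477 to 1.497 with 1 library left out) and 1.15 for TAU MOL (adjusted p = 0.0900, 0.743 to 1.76), the lowest values without WT VEH replicate 2 and the highest without WT VEH replicate 1.

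Ccl4 had the largest fold change of the 8 members tested at rest, but it passed the low-count filter only through its THY-Tau22 libraries. Its counts were 4, 4 and 1 in the basal WT libraries and 18 and 24 in the THY-Tau22 libraries, that is 0.108, 0.115 and 0.0314 CPM against 0.558 and 0.808 CPM. These groups were far apart, at a log2 fold change of 2.92 (95% interval 1.80 to 4.05), with 9 WT counts in all, and the adjusted p was 0.204. The result depended on the filter, since the adjusted p was 0.00108 when no low-count filter was used. In the learning libraries Ccl4 had 0.178, 0.0403 and 0.325 CPM in WT VEH_HC, 0.266 and 0.238 CPM in WT VEH, 0.434 and 0.566 CPM in TAU VEH, and 0.735 and 0.524 CPM in TAU MOL. Again each THY-Tau22 library exceeded each WT library, and the log2 fold change was 1.37 with an SE of 0.39 (adjusted p = 0.0182). This call was lost without TAU MOL replicate 1, TAU VEH replicate 2, WT VEH replicate 1 or WT VEH replicate 2 (adjusted p from 0.0558 to 0.0739), and DESeq2 gave no adjusted p. No difference between TAU MOL and TAU VEH was detected in either gene: TAU MOL minus TAU VEH was 0.26 for Ccl3 (95% interval -0.47 to 0.99) and 0.37 for Ccl4 (95% interval -0.74 to 1.48).

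**Figure D3:**
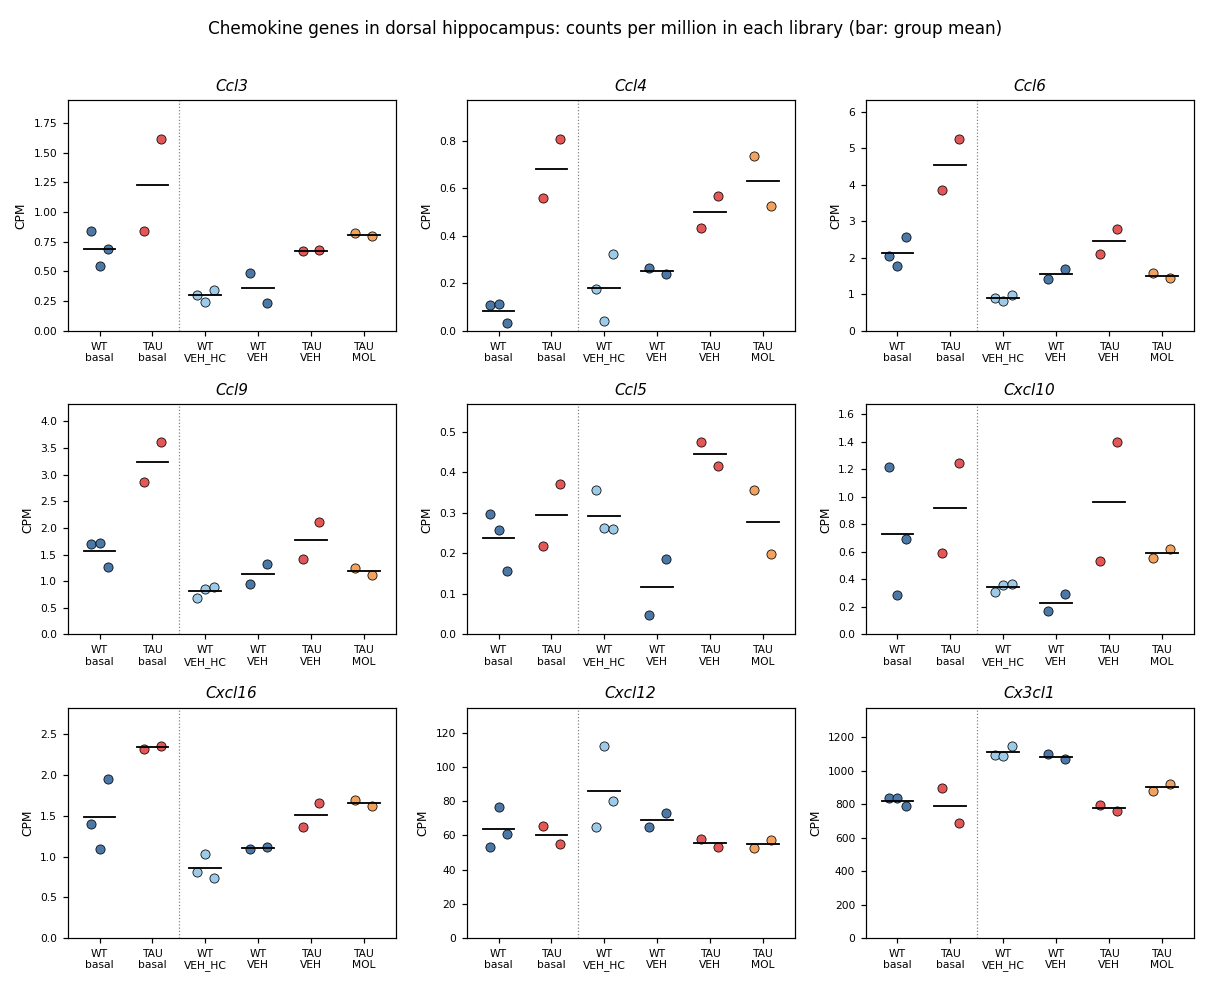
CPM of each chemokine gene in each library (points) with the group mean (bar), in the basal experiment left of the dotted line and the learning experiment right of it, on axes that start at 0. Ccl3 and Ccl4 lie above every WT learning library in all 4 THY-Tau22 learning libraries, and Cx3cl1 lies below.

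Ccl6 and Ccl9 are CC chemokines of the mouse myeloid lineage that act on Ccr1. Ccl6 had 2.05, 1.78 and 2.58 CPM in basal WT mice and 3.85 and 5.25 CPM in basal THY-Tau22 mice, at 1.09 on the log2 scale (standard error 0.24, adjusted p = 0.352). Ccl9 had 1.70, 1.72 and 1.26 CPM against 2.85 and 3.60 CPM, at 1.04 (standard error 0.24, adjusted p = 0.522). Neither gene overlapped between the genotypes, and neither passed adjustment in these 5 libraries unless the low-count filter was dropped (adjusted p = 0.00853 for Ccl6 and 0.0379 for Ccl9).

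Trained WT mice had more Ccl6 than home cage WT mice. It had 0.890, 0.826 and 0.976 CPM in WT VEH_HC and 1.43 and 1.70 CPM in WT VEH, without overlap, and the log2 fold change was 0.80 with an SE of 0.21 (adjusted p = 0.0423). The adjusted p rose to between 0.0726 and 0.215 under DESeq2, with the correction for GC content and length, in a fit of these groups alone and without any of 4 of the 5 libraries. The log2 fold change stayed between 0.669 and 0.916 in its 14 alternatives. All 14 choroid plexus markers were also higher in WT VEH than in WT VEH_HC, and their part in the Ccl6 difference was not tested. Ccl6 was higher still in TAU VEH, at 2.11 and 2.79 CPM, but the difference from WT VEH (0.63, standard error 0.22) did not pass (adjusted p = 0.0792). TAU MOL had 1.58 and 1.45 CPM, values that overlapped with WT VEH. The drop from TAU VEH to TAU MOL was -0.68 (95% interval -1.15 to -0.20), without overlap, at an adjusted p of 0.566.

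Ccl9 was also lowest in WT VEH_HC and highest in TAU VEH by group mean, at lower levels than Ccl6. WT VEH_HC had 0.687, 0.846 and 0.889 CPM, WT VEH 0.943 and 1.32 CPM, TAU VEH 1.42 and 2.11 CPM, and TAU MOL 1.25 and 1.12 CPM. Unlike Ccl6, Ccl9 was not called with training: WT VEH minus WT VEH_HC was 0.48 (95% interval -0.10 to 1.05, adjusted p = 0.259). TAU VEH stood above WT VEH in both libraries, but at 0.61 (adjusted p = 0.178) the contrast did not pass, and TAU MOL minus TAU VEH was -0.55 (95% interval -1.14 to 0.05). Over the 9 learning libraries, where TAU MOL and WT VEH overlapped for both genes, Ccl6 was 0.69 higher in THY-Tau22 mice (standard error 0.15, adjusted p = 0.00480; called in 17 of 18 alternatives) and Ccl9 0.58 higher (standard error 0.19, adjusted p = 0.0350). The Ccl9 call was lost with the GC and length correction (0.36, adjusted p = 0.272), under DESeq2 (adjusted p = 0.0663), with 1 coefficient per genotype (adjusted p = 0.0551) and without any of TAU MOL replicates 1 and 2, TAU VEH replicate 2, WT VEH replicate 1 and WT VEH_HC replicate 1 (adjusted p from 0.0655 to 0.127).

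Ccl6 and Ccl9 share a stretch around their starts, shown because, of the 5 members with at least 1 CPM, these neighbours had the most alike levels over the libraries. Ccl3 and Ccl4 were not compared in this way. In the RefSeq promoters of GRCm38.p6, both on the minus strand of chromosome 11, 58 of 67 aligned bases were identical (86.6%), in capitals below. The stretch runs from 59 bases before to 15 after the start of Ccl6 (chr11:83593073-83593146) and from 18 before to 49 after that of Ccl9 (chr11:83578588-83578654).
Ccl6: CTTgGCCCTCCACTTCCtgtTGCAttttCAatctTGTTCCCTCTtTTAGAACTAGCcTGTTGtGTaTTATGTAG
Ccl9: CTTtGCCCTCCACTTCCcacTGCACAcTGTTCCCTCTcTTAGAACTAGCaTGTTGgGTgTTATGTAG

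**Figure D4:**
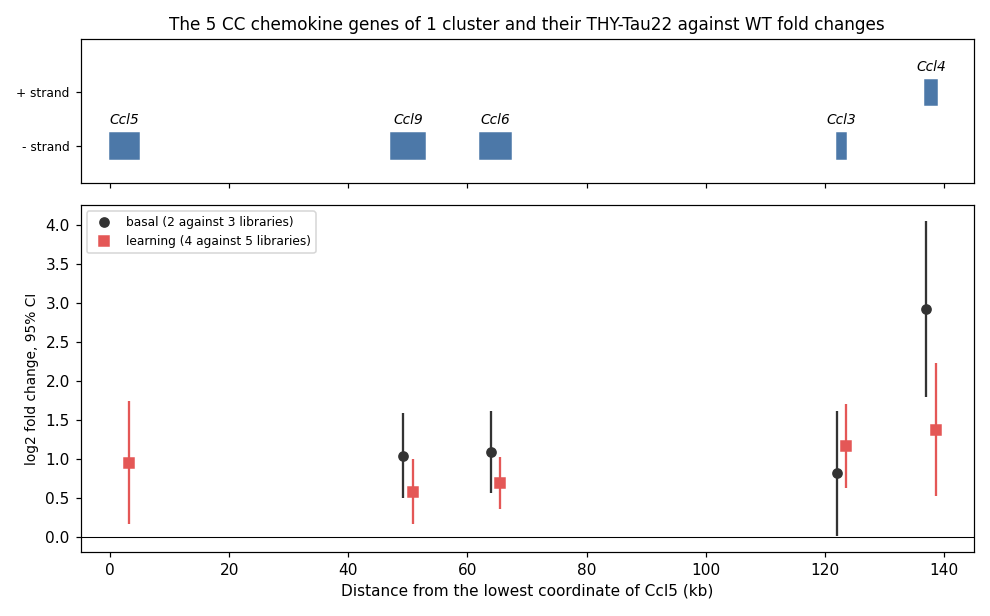
The 5 CC chemokine genes by distance from the lowest coordinate of Ccl5 in kb and by strand (upper panel), and their THY-Tau22 against WT log2 fold changes with 95% confidence intervals in the basal (circles, Ccl5 not tested) and the learning libraries (squares, lower panel). Each fold change shown lies above 0, between 0.58 and 2.92.

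Ccl5 (RANTES), a ligand of Ccr1 made by T cells and by glia, had 5 to 11 counts per basal library, at 0.297, 0.259 and 0.157 CPM in WT and 0.217 and 0.370 CPM in THY-Tau22 mice, and was filtered out there. The learning libraries held 0.356, 0.262 and 0.260 CPM in WT VEH_HC, 0.0483 and 0.185 CPM in WT VEH, 0.474 and 0.415 CPM in TAU VEH, and 0.356 and 0.199 CPM in TAU MOL. WT VEH was the lowest group, from 2 and 7 counts, and TAU VEH the highest. The log2 fold change of 1.95 between them (95% interval 0.74 to 3.16, adjusted p = 0.0363) was lost with the GC and length correction (adjusted p = 0.0798) and without any library but WT VEH replicate 2 (adjusted p from 0.0881 to 0.238), and DESeq2 gave no adjusted p. The value itself was 1.27 without WT VEH replicate 1 and 3.14 without WT VEH replicate 2. Home cage WT mice overlapped with THY-Tau22 mice, and over the 9 libraries the difference of 0.95 did not pass (adjusted p = 0.0639). That difference was 0.616 to 1.545 with 1 library left out, and it was called in 3 of 17 alternatives that gave an adjusted p. Of 10 T cell and natural killer cell markers, 2 passed the filter and 0 were called in any learning comparison, and their summed level was 1.08 to 1.98 CPM in the learning libraries and 2.36 to 2.62 CPM in the basal ones.

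Cxcl10 (IP-10), the ligand of Cxcr3, was variable at rest. It had 1.22, 0.287 and 0.691 CPM in basal WT and 0.589 and 1.25 CPM in basal THY-Tau22 libraries, which overlapped (log2 fold change 0.31, 95% interval -0.87 to 1.49). In the learning experiment it separated the genotypes: 0.305, 0.363 and 0.369 CPM in WT VEH_HC and 0.169 and 0.291 CPM in WT VEH stood below 0.533 and 1.40 CPM in TAU VEH and 0.557 and 0.624 CPM in TAU MOL. Between TAU VEH and WT VEH the log2 fold change was 1.98 with an SE of 0.49 (adjusted p = 0.0198), and 1.21 without TAU VEH replicate 2, where the adjusted p was 0.136, and 2.59 without TAU VEH replicate 1. The call was also lost with the GC and length correction (adjusted p = 0.0617) and without either WT VEH library (adjusted p = 0.149 and 0.0611), and DESeq2 gave no adjusted p. Over the 9 libraries the difference was 1.37 (standard error 0.32, adjusted p = 0.00757), and it was called in each of 17 alternatives that gave an adjusted p (adjusted p from 2.9e-05 to 0.0386). TAU MOL minus TAU VEH was -0.62 with overlapping libraries (95% interval -1.56 to 0.31).

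The promoter of Cxcl10 is printed since it holds motifs of the pathways this gene is known for. In the 300 bases of RefSeq (GRCm38.p6, chr5:92348840-92349139, minus strand, 250 before and 50 after the start), the kappaB motif matches 2 times, in capitals (GGGAAATTCC and GGGACTTCCC), at -159 and -103 from the start.
Cxcl10: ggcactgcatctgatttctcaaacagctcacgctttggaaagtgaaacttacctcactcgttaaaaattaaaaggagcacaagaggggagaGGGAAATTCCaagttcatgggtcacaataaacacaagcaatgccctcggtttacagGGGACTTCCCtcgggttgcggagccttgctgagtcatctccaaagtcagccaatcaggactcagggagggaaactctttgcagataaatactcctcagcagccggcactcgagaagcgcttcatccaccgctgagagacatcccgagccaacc
It also holds 1 match of the interferon-response motif (GAAAGTGAAA) at -213 and 1 AP-1 motif TGANTCA at -74. Searched on both strands of 32851 RefSeq promoters of this length, the kappaB motif was found in 20.7%, the interferon-response motif in 3.44% and the AP-1 motif in 7.81%, and none of these motifs overlapped in the Cxcl10 window. Of the other 5 member promoters in the table (Ccl3, Ccl6, Ccl9, Cxcl12 and Cx3cl1), none held the kappaB or interferon-response motif, and Ccl9 held the AP-1 motif. Among 12 interferon-response genes, all tested, edgeR called 0 in any comparison (at most 3 at an unadjusted p under 0.05), with a median log2 fold change of 0.21 in TAU VEH against WT VEH beside 0.00 over all genes. Of 13 cytokine and NF-kB genes, 10 were tested, and Rela and Relb, both subunits of NF-kB, fell in TAU VEH against WT VEH (log2 fold changes -0.35 and -0.40, adjusted p = 0.0318 and 0.0402), as did 10.8% of all genes.

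Cxcl16, the membrane-anchored ligand of Cxcr6, was higher in THY-Tau22 mice in the learning libraries. Basal WT libraries had 1.41, 1.09 and 1.95 CPM and basal THY-Tau22 libraries 2.33 and 2.36 CPM, apart but not past adjustment (log2 fold change 0.66, standard error 0.28, adjusted p = 0.902). The learning WT libraries ran from 0.737 to 1.11 CPM, with 0.814, 1.03 and 0.737 CPM in WT VEH_HC and 1.09 and 1.11 CPM in WT VEH. The THY-Tau22 libraries were all higher, with 1.36 and 1.66 CPM in TAU VEH and 1.69 and 1.62 CPM in TAU MOL. The difference over the 9 libraries was 0.69 (standard error 0.16, adjusted p = 0.00714), and Cxcl16 was the member called in all of its 18 alternatives (adjusted p from 0.00188 to 0.0452). The single contrasts with WT VEH did not pass, at 0.44 for TAU VEH (adjusted p = 0.278) and 0.59 for TAU MOL (adjusted p = 0.187).

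Cxcl12, the ligand of Cxcr4 and Ackr3, was lower in THY-Tau22 mice over the 9 learning libraries. It did not differ detectably at rest, with 53.4, 76.6 and 61.0 CPM in WT and 65.3 and 55.2 CPM in THY-Tau22 libraries (log2 fold change -0.08, 95% interval -0.43 to 0.27). In the learning experiment WT VEH_HC had 64.9, 112 and 80.1 CPM, WT VEH 64.7 and 72.9 CPM, TAU VEH 57.7 and 53.0 CPM, and TAU MOL 52.9 and 57.4 CPM. All THY-Tau22 libraries were below all WT libraries, and the log2 fold change was -0.48 with an SE of 0.13 (adjusted p = 0.0140). This was called in 14 of 18 alternatives and lost with library size alone (adjusted p = 0.0503) and without TAU MOL replicate 1, TAU VEH replicate 2 or WT VEH replicate 2 (adjusted p from 0.0525 to 0.0681). The single contrasts with WT VEH did not pass, at -0.31 for TAU VEH (95% interval -0.72 to 0.10, adjusted p = 0.326) and -0.32 for TAU MOL (95% interval -0.73 to 0.09, adjusted p = 0.392), although the libraries did not overlap and each was called in 2 of 13 alternatives. The highest library, WT VEH_HC replicate 2, also held the most endothelial markers (9 genes, 290.5 CPM against 146.8 to 206 CPM in the other learning libraries) and the most mural and meningeal markers (10 genes, 412 against 172 to 325 CPM). Without it the Cxcl12 difference was still called (adjusted p = 0.00146). Of the 9 endothelial markers, 3 were lower in THY-Tau22 mice over the 9 libraries (15.4% of all genes), Kdr (-0.77, adjusted p = 0.000505), a receptor for VEGF, and Cldn5 (-0.70, adjusted p = 0.00374), a tight junction protein, among them. The part of vessel content in the Cxcl12 difference was not tested.

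Cx3cl1 was lower in both THY-Tau22 groups of the learning experiment. At rest it had 835, 836 and 791 CPM in WT and 897 and 686 CPM in THY-Tau22 libraries, which lay on both sides of WT (log2 fold change -0.05, 95% interval -0.36 to 0.26). These are also the libraries with GC correlations of 0.481 and -0.60. The learning WT libraries were tight, with 1096, 1091 and 1148 CPM in WT VEH_HC and 1100 and 1071 CPM in WT VEH, and training left the gene within this spread (-0.03, 95% interval -0.16 to 0.09). TAU VEH had 794.5 and 758 CPM and TAU MOL 882 and 924 CPM. TAU VEH was lower than WT VEH, and the log2 fold change was -0.48 with an SE of 0.06 (adjusted p = 0.00114). For TAU MOL the value was -0.27 (standard error 0.06, adjusted p = 0.0333), and for the 4 THY-Tau22 against the 5 WT libraries it was -0.39 (standard error 0.04, adjusted p = 9.69e-05). TAU MOL exceeded TAU VEH in both libraries by 0.22 (95% interval 0.08 to 0.36), at an adjusted p of 0.455.

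The Cx3cl1 difference shrank with the correction for GC content and length. Both were corrected together, so their parts cannot be told apart. The exons of Cx3cl1 are 56.7% GC, beside a median of 50% over the genes tested and 42.0% to 51.5% in the other members. With the GC and length correction, TAU VEH minus WT VEH was -0.26 (adjusted p = 0.0612), TAU MOL minus WT VEH -0.10 (adjusted p = 0.597), and the difference over the 9 libraries -0.17 (adjusted p = 0.0384), under the limit of 0.2 on the fold change. The TAU MOL contrast was also lost with library size alone (adjusted p = 0.146) and without any of its 4 libraries. The 8 neuronal markers summed to 13060 to 13910 CPM in the learning THY-Tau22 libraries and to 16870 to 19360 CPM in the WT libraries. Against WT VEH, 3 of the 8 were lower in TAU VEH (10.8% of all genes), among them Slc17a7, the glutamate transporter of excitatory synapses (-0.63, adjusted p = 0.00179), and Camk2a, a kinase of excitatory neurons (-0.55, adjusted p = 0.00186), although the median of all 8 was -0.04 beside 0.00 over all genes. In the basal experiment, where Cx3cl1 overlapped, these markers overlapped as well, with 11670 to 13400 CPM in THY-Tau22 and 12080 to 13550 CPM in WT mice. The part of neuronal content was not tested.

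Chemokine receptors in general, not only those of these ligands, were called at a share near that of all genes over the 9 learning libraries. Of 23 chemokine receptor genes listed, 12 were tested in the basal and 11 in the learning experiment, with 0 called by edgeR at rest and 0 in each of the 3 contrasts among trained groups, in each of which 1 had an unadjusted p under 0.05. Of the 11, 2 were higher with training in WT mice (5.35% of all genes), and 2 were higher and 1 lower in THY-Tau22 mice over the 9 libraries (12.1% and 15.4% of all genes). In the last contrast Ackr3, the scavenger receptor of Cxcl12, was 0.33 higher in THY-Tau22 mice (standard error 0.07, adjusted p = 0.00461), and Ackr1 was lower (-0.33, adjusted p = 0.00114). Ackr3 also differed with training in WT mice, by 0.63 (standard error 0.10, adjusted p = 0.00557). The home cage libraries stood lowest, as Ackr3 had 7.73 to 8.78 CPM in WT VEH_HC, 12.1 to 13.3 CPM in WT VEH, 13.4 to 14.9 CPM in TAU VEH and 11.6 to 11.8 CPM in TAU MOL. Among trained mice, TAU VEH minus WT VEH was 0.15 for Ackr3 (95% interval -0.08 to 0.38, adjusted p = 0.416).

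Cx3cr1, the receptor of Cx3cl1, overlapped between genotypes in the learning libraries. It had 60.8 to 72.4 CPM in WT VEH_HC, 59.9 to 60.5 CPM in WT VEH, 57.8 to 68.0 CPM in TAU VEH and 57.6 to 66.2 CPM in TAU MOL, and the difference over the 9 libraries was -0.01 (standard error 0.07, adjusted p = 0.946). In basal mice it was 41.4 to 52.0 CPM in WT and 56.5 to 62.8 CPM in THY-Tau22 libraries, apart but not past adjustment (0.30, standard error 0.13, adjusted p = 0.902). Cxcr4 had 1.57 to 3.84 CPM in all 14 libraries and was not called in any comparison. Ccr1, Cxcr3 and Cxcr6 stayed below 0.35 CPM in every library and were not tested. The sheddases that release Cx3cl1 and Cxcl16 were higher in THY-Tau22 mice over the 9 libraries, Adam10 by 0.28 (standard error 0.05, adjusted p = 0.00162) and Adam17 by 0.29 (standard error 0.08, adjusted p = 0.0129). Neither passed against WT VEH alone, at 0.22 for Adam10 (adjusted p = 0.0817) and 0.17 for Adam17 (adjusted p = 0.375) in TAU VEH.

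**Figure D5:**
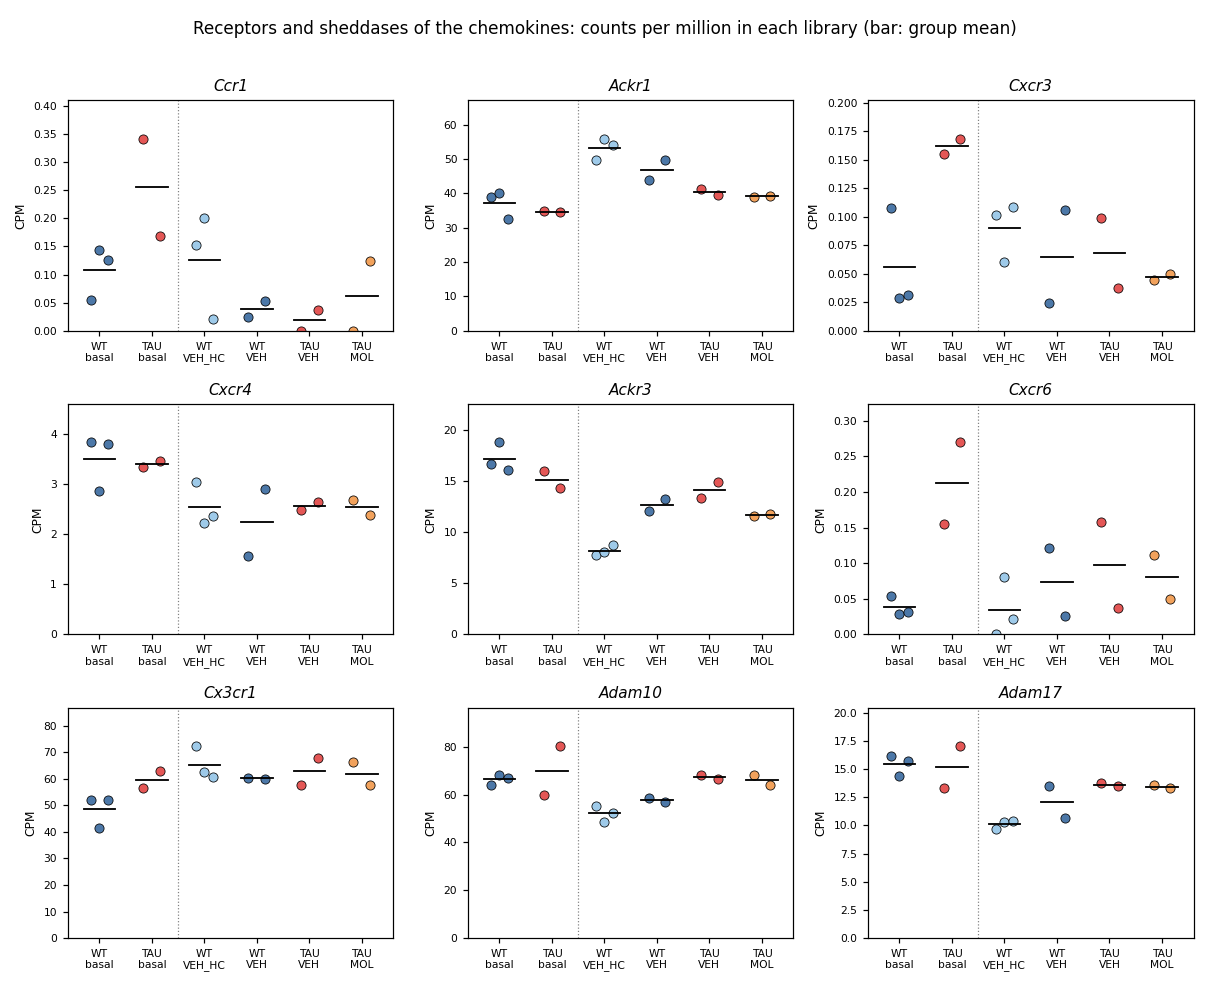
CPM of 7 chemokine receptors and the sheddases Adam10 and Adam17 in each library (points) with the group mean (bar), on axes that start at 0. Ackr3 is lowest in the 3 WT VEH_HC libraries, and Ccr1, Cxcr3 and Cxcr6 stay below 0.35 CPM.

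Of 29 other chemokine ligands, 8 were tested in each experiment and edgeR called 0 in any of the 6 comparisons, with at most 3 at an unadjusted p under 0.05. Their median log2 fold change was 0.11 over the 9 learning libraries, beside 0.69 for the 9 members and 0.00 for all genes. The members and lists were chosen with earlier results of these data known, which limits this comparison. Of 15 genes of receptor signalling and ligand processing, 3 were higher and 3 lower over the 9 libraries (beside 12.1% higher and 15.4% lower of all genes), with Ptk2b, a calcium-activated kinase (-0.31, adjusted p = 0.000559), and Arrb2, which binds activated receptors (-0.29, adjusted p = 0.000974), lower.

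Markers of the cells that make these ligands moved in part. Of all genes, 12.1% were higher and 15.4% lower over the 9 learning libraries. Of 10 homeostatic microglia markers, 2 were higher and 1 lower, Fcrls by 0.28 (adjusted p = 0.00804) and Tmem119 by -0.24 (adjusted p = 0.0106), and the summed level was 302 to 365 CPM in WT and 345 to 387.5 CPM in THY-Tau22 libraries. Of 10 reactive microglia markers, 5 were higher, Itgax (2.02, adjusted p = 9.84e-05) and Clec7a (2.77, adjusted p = 0.000106) among them. Of 8 astrocyte markers, 3 were higher, with Gfap by 0.70 (adjusted p = 8.75e-05). In WT mice, training raised P2ry12, a microglial purine receptor, by 0.53 (adjusted p = 0.0434) beside Ccl6, and the other 9 microglia markers were not called (5.35% of all genes were higher). Of these 10 markers, 9 had a log2 fold change above 0 in that contrast, with a median of 0.26 beside -0.003 over all genes. How much of the chemokine differences follows these markers was not tested.

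Across the 14 libraries, with levels centred within each experiment, 5 members had at least 1 CPM on average in both and could be compared with 13722 genes. Ccl9 was most like Ccl6 (Pearson r = 0.899, n = 14 libraries), and Ccl6 most like Nudt21 (r = 0.93). Cxcl12 was most like Parvg (r = 0.953), Sox17 (r = 0.941) and Igfbp7 (r = 0.927), Cxcl16 most like Abca9 (r = 0.919) and Gbp2 (r = 0.917), and Cx3cl1 most like Fuz (r = 0.992) and Mark2 (r = 0.984). Cx3cl1 ran against Ccl6 (r = -0.732) and Cxcl16 (r = -0.684) and with Cxcl12 (r = 0.658). These values are descriptions, since the points share their groups, depth and GC dependence.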

How the data were processed

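RNA from the dorsal hippocampus of 14 mice was sequenced as single-end poly-A libraries that do not mark strand. Per the labels and the study's methods, the authors aligned reads to mm9 with TopHat2 2.0.10 and Bowtie2 2.1.0 and deposited counts of uniquely aligned reads per Ensembl gene from HTSeq 0.5.4p3. The strand setting of HTSeq is not given in the sources used here. The deposited normalized signal, counts divided by 1 factor per library, was not used for tests. Counts as deposited were tested with edgeR 4.0.16 in R 4.3.3 (TMM, filterByExpr, quasi-likelihood test, Benjamini-Hochberg adjustment over all genes tested), with the 5 basal and the 9 learning libraries in separate fits. Called genes had a log2 fold change beyond 0.2 in either direction and an adjusted p under 0.05. DESeq2 1.42.0, other scalings and filters, a correction for GC content and length, a replicate block and leaving out each library were the alternatives. The labels give replicate numbers only, so p-values measure the spread between these libraries. The members and gene lists were chosen with earlier results of these data known. Named were all members, 6 receptors, Adam10 and Adam17, and for other lists at most the 2 called genes of lowest p per comparison. For each member with at least 1 CPM, up to 3 of the genes most alike were named. A receptor and a sequence are not reported here.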

Additional observations from a re-analysis of the deposited data

How the results depend on the processing

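Counts of called members and of all called genes changed with the low-count filter, the GC and length correction and single libraries left out. The cause was not tested. With no low-count filter, edgeR called 3 members and 125 genes at rest, 3 and 1590 in TAU MOL against WT VEH, 2 and 2686 in WT VEH against WT VEH_HC, and 233 genes in TAU MOL against TAU VEH. With the GC and length correction it called 12 genes at rest, 0 members and 505 genes in TAU VEH against WT VEH, 0 and 21 in TAU MOL against WT VEH, 0 and 735 in WT VEH against WT VEH_HC, and 1267 genes over the 9 libraries. DESeq2 called 41 genes at rest, 1 member in TAU VEH against WT VEH, 54 genes in TAU MOL against TAU VEH, 0 members in WT VEH against WT VEH_HC and 4 over the 9 libraries. DESeq2 left several rare members without an adjusted p. Fits of only the groups compared called 2 members and 1490 genes in TAU MOL against WT VEH, 60 genes in TAU MOL against TAU VEH, and 0 members and 310 genes in WT VEH against WT VEH_HC. Library size alone called 0 members in TAU MOL against WT VEH. Leaving out 1 library gave 1 to 15 genes at rest, 1 to 2 members and 915 to 1276 genes in TAU VEH against WT VEH, 0 members and 2 to 4 genes in TAU MOL against WT VEH, 0 to 11 genes in TAU MOL against TAU VEH, 0 to 1 members and 73 to 2798 genes in WT VEH against WT VEH_HC, and 5 to 8 members over the 9 libraries.

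The main fits did not pair libraries by replicate number. Deviations of same-numbered libraries correlated at -0.161 to -0.0647 in 2 basal pairs. In 12 learning pairs they correlated at -0.0394 to 0.243, with 4 pairs over 0.1. In a group of 2 libraries the deviations mirror each other, so several pairs repeat a value. The check therefore cannot show whether the libraries were paired. A replicate block called 37 genes at rest and 3000 in WT VEH against WT VEH_HC. The block with the GC and length correction called 0 genes at rest, 1 member and 728 genes in TAU VEH against WT VEH, 0 and 51 in TAU MOL against WT VEH, 0 members in WT VEH against WT VEH_HC, and 5 members and 1208 genes over the 9 libraries. Called members not called with the block were Ccl5 in TAU VEH against WT VEH (adjusted p = 0.0554, and 0.102 with the correction added), and, with both, Ccl6 (adjusted p = 0.0554), Ccl9 (0.222) and Cx3cl1 (0.0693) over the 9 libraries, Ccl6 in WT VEH against WT VEH_HC (0.0858) and Cx3cl1 in TAU VEH against WT VEH (0.0629) and in TAU MOL against WT VEH (0.557).

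Directions turned only for members that were not called. At rest, Cx3cl1 was 0.023 with the GC and length correction and 0.004 with the block added, and leaving out libraries gave -0.235 to 0.129 for it, -0.319 to 0.924 for Cxcl10 and -0.182 to 0.093 for Cxcl12. In TAU MOL against WT VEH, Ccl6 was 0.08 with library size alone and -0.152 to 0.086 with libraries left out, and Ccl9 was -0.049 with the GC and length correction, -0.027 with the block added and -0.149 to 0.329 with libraries left out. In TAU MOL against TAU VEH, leaving out libraries gave -0.065 to 0.061 for Cxcl12, -0.001 to 0.282 for Cxcl16 and -1.238 to 0.143 for Cxcl10. In WT VEH against WT VEH_HC, Cx3cl1 was 0.022 with the GC and length correction and 0.045 with the block added, and leaving out libraries gave -0.314 to 0.699 for Ccl3 and -0.02 to 1.277 for Ccl4.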
